A study of Rattus norvegicus with 125 samples.

Results

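The genes described here encode the nuclear parts of mitochondrial complexes I, II, III and V. They were taken by name from the array's annotation: every gene whose symbol starts with Ndufa, Ndufb, Ndufc, Ndufs, Ndufv, Uqcr or Atp5, plus Sdha, Sdhb, Sdhc, Sdhd and Cyc1. The rule found 68 of the 13438 genes that have a probe set with a single symbol. They are 34 genes named for complex I, 6 complex I assembly factors, 4 genes of complex II, 8 of complex III and 16 of complex V. The rule itself uses no measured value, but the set was proposed with earlier results of these data known. A further 7 symbols that meet the rule, among them Ndufa10, Atp5mc2 and Uqcrb, lie only on probe sets shared with another symbol and were not measured separately.

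Complexes I and II pass electrons from NADH and succinate to ubiquinone, complex III hands them on to cytochrome c, and complex V, the ATP synthase, uses the resulting proton gradient to make ATP. Complexes I, III and V also hold subunits encoded by mitochondrial DNA, which are not among these genes, while complex II is encoded by nuclear DNA alone. Heart muscle is rich in mitochondria. Phosphine (PH3) is a fumigant gas and is known to inhibit mitochondrial respiration.

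RNA was measured on 125 Affymetrix 3' arrays from adult male Sprague-Dawley rats of 300 to 400 g, unmodified genetically as far as the labels say. PH3 rats inhaled the gas with their whole body exposed, at 387 ppm over 40 min. The submitters give this as 15480 ppm x min and call it low. Air rats had 0 ppm for 40 min. All rats were killed under ketamine and xylazine by bleeding, and the 48 rats gave between 1 organ and 4 organs each. The comparisons set PH3 against Air in brain, heart and kidney at 1, 3, 6 and 24 h, in liver at 6 h, and in lung at 3 h, 24 h and 1 week. Most groups had 4 arrays, but heart at 24 h had 3 PH3 and 2 Air arrays, lung at 3 h had 4 PH3 and 2 Air arrays and lung at 1 week had 3 PH3 and 4 Air arrays. The liver also had 3 PH3 arrays at 3 h with no Air arrays at that time. Each organ is a whole-tissue extract, in which fewer cells of a type and less RNA per cell cannot be told apart.

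Values are log2 array signals, so a difference of 1 is a doubling. Whether all arrays or each organ alone went through the authors' normalization together is not given in the sources used here, and differences between organs are read as if on one scale. Arrays carry no read depth, and the number of rats limits the precision. Of 18 marker genes of the 5 organs, 17 were higher on every Air array of their own organ than on any other Air array. The exception was the brain marker Syt1, whose probe set averaged only 4.35. Arrays of 1 group correlated at 0.951 to 0.994 over genes. The brain arrays of Air rats 89 and 145 at 24 h and the heart array of PH3 rat 141 at 6 h stood apart from their groups. The brain pair did so in their low cerebellum markers. The Ndufs7 change in heart at 6 h and the named changes and calls in brain at 24 h are given without them too. So are the counts of genes apart between brain and other organs. Most other results are given only with these arrays.

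Promoters of 63 of the 68 genes were found in the RefSeq table of build GRCr8, each a window of 300 bases around the annotated start. Motif letters were searched on both strands. The NRF1 core GCATGCG, the ETS core CCGGAAG bound by GABP (NRF2), and the YY1 core AAGATGG are motifs of factors known to act on nuclear genes for mitochondrial proteins. The NRF1 core was found in 11 of the 63 promoters (17.5%), against 3.33% of all 33469 promoters in the table. The ETS core was found in 19 (30.2%), against 8.75% of all promoters, and the YY1 core in 16 (25.4%), against 7.01%. At least 1 of the 3 was found in 33 (52.4%), against 17.5%. The NRF1 core nearly equals its own reverse complement, so hits on both strands often overlap. A match is a stretch of letters and not a measured binding site. The promoters of 4 genes whose values recur below are printed 5′ to 3′, with matched letters in capitals. Ndufaf4 had the largest change with PH3 at 1 probe set per gene. Ndufs1 and Uqcrc2 varied together between arrays, and Ndufa4l2 was highest in lung.
Ndufaf4, chr5:43401545-43401844 (+ strand): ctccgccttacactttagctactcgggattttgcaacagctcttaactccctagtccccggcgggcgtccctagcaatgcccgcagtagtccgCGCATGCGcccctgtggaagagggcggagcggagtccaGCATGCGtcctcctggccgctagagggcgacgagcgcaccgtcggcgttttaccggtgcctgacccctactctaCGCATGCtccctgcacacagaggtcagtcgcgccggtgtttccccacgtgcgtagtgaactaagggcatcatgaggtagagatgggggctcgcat
Ndufs1, chr9:72073556-72073855 (- strand): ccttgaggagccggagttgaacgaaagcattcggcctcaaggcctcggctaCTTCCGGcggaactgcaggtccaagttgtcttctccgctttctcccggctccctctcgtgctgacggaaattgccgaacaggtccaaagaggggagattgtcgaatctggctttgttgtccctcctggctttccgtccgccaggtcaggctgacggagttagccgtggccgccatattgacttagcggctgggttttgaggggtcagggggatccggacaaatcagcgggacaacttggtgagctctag
Uqcrc2, chr1:184598990-184599289 (+ strand): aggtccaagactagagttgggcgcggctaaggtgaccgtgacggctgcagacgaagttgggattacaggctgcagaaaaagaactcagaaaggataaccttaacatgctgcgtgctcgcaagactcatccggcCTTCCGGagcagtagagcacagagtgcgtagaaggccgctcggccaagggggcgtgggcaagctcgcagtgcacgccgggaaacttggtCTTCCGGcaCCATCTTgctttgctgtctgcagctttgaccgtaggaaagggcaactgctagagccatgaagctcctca
Ndufa4l2, chr7:65241919-65242218 (+ strand): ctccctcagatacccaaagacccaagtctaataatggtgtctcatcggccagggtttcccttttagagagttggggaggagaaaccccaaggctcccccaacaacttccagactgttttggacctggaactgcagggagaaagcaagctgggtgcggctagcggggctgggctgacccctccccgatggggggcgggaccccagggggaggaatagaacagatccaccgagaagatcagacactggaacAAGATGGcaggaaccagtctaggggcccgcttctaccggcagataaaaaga
Ndufaf4 holds the NRF1 core alone, Ndufs1 the ETS core, Uqcrc2 the ETS and YY1 cores, and Ndufa4l2 the YY1 core. The YY1 core contains ATG, the letters of a start codon, and in Ndufa4l2 it lies at the annotated start of the gene. How many YY1 matches, in these genes or in all promoters, are letters of a start codon was not tested.

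The first question was where these genes are active in rats that breathed Air. With 1 probe set per gene, the heart had the highest level of 63 of the 68 genes and the lung the lowest of 58. Dimmer probe sets of Ndufa7 and Ndufaf7 were higher in brain (8.33 and 6.93) than in heart (6.06 and 6.08). The commonest order, in 33 genes, was heart, kidney, brain, liver, lung. In 21 more the liver and the brain changed places. The median of the 68 genes on an array averaged 12.47 ± 0.04 in heart (SD, n = 14), 11.80 ± 0.06 in kidney (n = 16), 11.23 ± 0.07 in brain (n = 16), 11.26 ± 0.06 in liver (n = 4) and 10.58 ± 0.18 in lung (n = 10). The heart arrays did not overlap with those of any other organ in this median, while brain and liver did. The range between a gene's highest and lowest organ had a median of 1.84, a 3.58-fold difference.

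**Figure D1:**
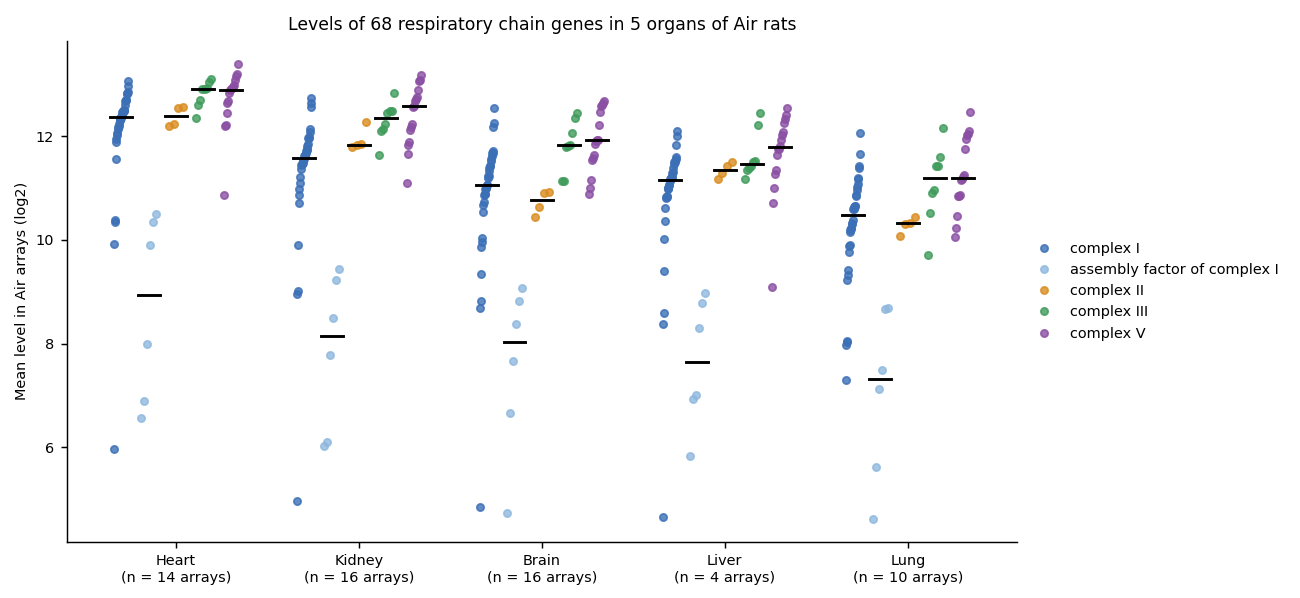
Mean log2 level of each of the 68 genes (points) in Air arrays of 5 organs, in colours by complex, with the median of each complex as a black bar. Heart stands highest and lung lowest for most genes, with medians of complex I subunits at 12.36 in heart and 10.47 in lung; levels of different probe sets cannot be set against each other.

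In limma's moderated test with Benjamini-Hochberg adjustment over all genes, a gene was counted as apart between 2 organs at an adjusted p under 0.05 with at least a 2-fold difference. Between heart and lung, 60 of 68 genes were higher in heart, where 12% of all genes were, and 1 was lower, where 18.6% of all genes were. Heart exceeded liver for 49 genes (16.8% of all genes) and brain for 42 (19.2%). None was lower in heart, where 15.1% of all genes were against liver and 17% against brain. Heart exceeded kidney for 9 of 68, near the 11.8% of all genes, and none was lower, where 15.8% of all genes were. Kidney exceeded lung for 40 genes (12.6%) and liver for 3 (15.1%). Liver was above lung for 12 genes (14.1%) and brain above lung for 8 (15.2%). Ndufa4l2 alone was lower than in lung in liver (21.4% of all genes), brain (21.6%) and kidney (14.9%). Brain was below kidney for 7 genes (21.3%) and above it for none (15.8%), and brain and liver differed for 4 genes, 2 higher in brain (20.9%) and 2 higher in liver (21.1%). With no limit on the fold, all 68 genes differed between heart and lung and between heart and liver, where 75.9% and 65% of all genes did, and 67 and 64 between heart and brain (82.2%) and heart and kidney (74.4%). The shares of all genes past the adjusted p in the other pairs were 82.8% for brain against kidney, 78.5% for brain against liver, 76.5% for brain against lung, 61.2% for kidney against liver, 70.3% for kidney against lung and 70.6% for liver against lung, and the members' counts were 64, 50, 65, 59, 68 and 59. The 5 organs' all-gene medians moved when arrays were shifted to one median, by 0.26 for heart against kidney and 0.35 for liver against lung, and the members' counts moved with them, to 26 and 25.

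Complex I takes electrons from NADH through its flavin and iron-sulphur subunits. Its median difference between heart and lung was 1.83, and 32 of its 34 genes were at least 2-fold higher in heart. Ndufs1, the largest iron-sulphur subunit, had the widest range of all. Its lowest, median and highest levels were 12.00, 12.34 and 12.45 in heart, against 6.93, 8.09 and 8.95 in lung. No heart array overlapped with a lung array, and the difference was 4.27 ± 0.20 (SE), or 19.3-fold (limma, adjusted p = 2.82e-25). The difference in level between the 3' and 5' probe sets of the Gapdh control, a measure of RNA integrity, was 0.19 to 0.63 on Air heart arrays and 0.97 to 2.32 on Air lung arrays. Its part in the organ differences, those of Sdha and Uqcrc2 included, was not tested. In the organs between, Ndufs1 spread widely, at 9.22, 10.85 and 11.44 in kidney and at 9.32, 10.05 and 10.59 in brain, so that kidney and liver, and liver and brain, did not differ beyond their spread. Ndufv3, an accessory subunit of the flavin module, came next, at 12.51 ± 0.10 in heart (SD, n = 14) and 9.33 ± 0.28 in lung (n = 10), a difference of 3.16 ± 0.07 (SE). This is from the brighter of its probe sets, while the other averaged 7.39 in heart and 7.44 in lung. Ndufv1, the flavin-carrying subunit, averaged 12.46 ± 0.07 in heart and 10.14 ± 0.18 in lung. Ndufab1, the mitochondrial acyl carrier protein, averaged 12.85 ± 0.07 in heart and 10.59 ± 0.33 in lung. All the adjacent organs in the orders of Ndufv1, Ndufv3 and Ndufab1 differed at an adjusted p under 0.05.

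Ndufa4 and Ndufa4l2 are paralogues that differed in the place of the lung. Ndufa4, now assigned to complex IV by many workers, averaged 12.70 ± 0.09 in heart (SD, n = 14) and 11.43 ± 0.24 in lung (n = 10). Ndufa4l2, known in cultured cells as a hypoxia-induced gene that lowers complex I activity, was the only one of the 68 with its highest level in lung. Its lowest, median and highest levels were 5.32, 5.98 and 6.84 in heart, against 6.82, 7.21 and 7.86 in lung. The highest heart array overlapped with the lowest lung array, and the difference was -1.31 ± 0.12 (SE), 2.48-fold lower in heart (limma, adjusted p = 1.09e-13). Kidney (4.96 ± 0.35), brain (4.85 ± 0.19) and liver (4.65 ± 0.21) were low, and neither kidney and brain nor brain and liver differed beyond their spread.

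Of the 6 assembly factors, which help build complex I without staying in it, 4 had the usual heart maximum. Among these, Ndufaf7 had it on only 1 of its 2 probe sets. Ndufaf4 averaged 9.90 ± 0.11 in heart (SD, n = 14), 8.50 ± 0.30 in kidney (n = 16), 8.31 ± 0.29 in liver (n = 4), 7.67 ± 0.18 in brain (n = 16) and 7.13 ± 0.30 in lung (n = 10), with kidney and liver not apart. Ndufaf1 was highest in liver, averaging 6.57 ± 0.28 in heart and 6.93 ± 0.27 in liver, and the heart-minus-liver difference of -0.35 ± 0.13 (SE) had an adjusted p of 0.0177 in limma. Ndufaf5 was highest in brain. Its heart-minus-brain difference was -0.40 ± 0.06 (SE), with levels of 7.99 ± 0.11 in heart and 8.37 ± 0.10 in brain (SD).

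Complex II, succinate dehydrogenase, also works in the citric acid cycle. Its 4 genes were at least 2-fold higher in heart than in lung and in heart than in brain, and 3 of them were at least 2-fold lower in brain than in kidney. Sdha, the flavoprotein, averaged 12.54 ± 0.12 in heart (SD, n = 14), 11.82 ± 0.42 in kidney (n = 16), 11.50 ± 0.13 in liver (n = 4), 10.64 ± 0.22 in brain (n = 16) and 10.07 ± 0.37 in lung (n = 10). Sdhb, the iron-sulphur subunit, followed the same order, at 12.55 ± 0.06 in heart and 10.33 ± 0.16 in lung. Sdhc, a membrane anchor, averaged 12.19 ± 0.05 in heart and 12.26 ± 0.09 in kidney, a difference of -0.08 ± 0.04 (SE) that did not pass the test (limma, adjusted p = 0.112). The other anchor, Sdhd, averaged 12.24 ± 0.11 in heart and 11.78 ± 0.14 in kidney.

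In complex III the largest ranges were those of Uqcrc2, a core protein, and Uqcrfs1, the Rieske iron-sulphur protein. Uqcrc2 averaged 12.36 ± 0.06 in heart (SD, n = 14) and 9.72 ± 0.56 in lung (n = 10), a difference of 2.66 ± 0.16 (SE). Uqcrfs1 averaged 12.91 ± 0.12 in heart and 10.52 ± 0.35 in lung. Cyc1, cytochrome c1, averaged 13.11 ± 0.05 in heart, 12.45 ± 0.09 in kidney, 11.83 ± 0.07 in brain, 11.53 ± 0.02 in liver and 10.90 ± 0.25 in lung, and each step of that order passed the test. Uqcrc1, the other core protein, averaged 12.91 ± 0.06 in heart and 10.96 ± 0.27 in lung.

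Complex V had a median heart-minus-lung difference of 1.44, the smallest of the 4 complexes for that pair, and 12 of 16 genes at least 2-fold higher in heart. Atp5f1b, the catalytic beta subunit, averaged 13.20 ± 0.07 in heart (SD, n = 14), 13.18 ± 0.09 in kidney (n = 16), 12.65 ± 0.09 in brain (n = 16), 12.54 ± 0.06 in liver (n = 4) and 12.01 ± 0.09 in lung (n = 10). Heart and kidney did not differ in it beyond their spread. Its partner Atp5f1a, the alpha subunit, averaged 12.92 ± 0.06 in heart and 10.85 ± 0.35 in lung. Of the genes for the membrane ring subunit c, Atp5mc1 ranged from 13.40 ± 0.04 in heart to 11.17 ± 0.38 in lung, while Atp5mc3 lay between 13.09 ± 0.09 in heart and 12.09 ± 0.16 in lung. Atp5pb, a stalk subunit, averaged 12.94 ± 0.09 in heart and 10.84 ± 0.28 in lung. Atp5f1e, the epsilon subunit, had the smallest range of the 68 genes, 0.80, with 13.15 ± 0.06 in heart and 12.34 ± 0.07 in liver.

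Atp5if1 encodes the inhibitor that stops the synthase from running backwards. Its highest organ was kidney. It averaged 11.10 ± 0.09 in kidney (SD, n = 16), 10.89 ± 0.12 in brain (n = 16), 10.87 ± 0.13 in heart (n = 14), 10.06 ± 0.31 in lung (n = 10) and 9.09 ± 0.28 in liver (n = 4). Brain and heart did not differ beyond their spread. The kidney-minus-liver difference was 2.01 ± 0.10 (SE), a 4.03-fold difference (limma, adjusted p = 2.71e-24).

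The same heart-first order held within rats: in the 4 Air rats of 6 h with heart, kidney, brain and liver arrays, 62 to 65 of the 68 genes had their highest level in the rat's own heart. Genes around the pathway followed only in part. Of 16 complex IV genes, 9 were at least 2-fold higher in heart than in lung and 2 were lower, with a median difference of 1.06, and all 11 citric acid cycle genes measured were at least 2-fold higher, with a median of 2.22. Of 10 regulators of mitochondrial genes, 3 were, with a median of 0.37. Lung was not the lowest organ for many complex IV genes. At the same limit, 5 of the 16 were lower in kidney than in lung and 3 were higher. For brain against lung 5 were lower and 1 higher, and for liver against lung 5 were lower and 0 higher.

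The main question of the study was what PH3 does to each organ. None of the 68 genes passed an adjusted p of 0.05 in any of the 16 comparisons (limma with Benjamini-Hochberg adjustment over 13438 genes). Of the 1088 pairs of gene and comparison, 958 had a 95% confidence interval that lay within 0.5 log2 of no change, that is, within 1.41-fold. With the brightest probe set per gene, only 10 pairs had a change over 0.5 in size. Some dimmer probe sets, outside these pairs, also changed by more than 0.5. Among them, that of Ndufa7 changed by 0.92 in liver at 6 h (mean level 7.28). That of Uqcrc2 changed by -0.83 in brain at 1 h (6.01) and 0.56 in heart at 3 h (8.29). That of Ndufaf7 changed by -0.55 in kidney at 6 h (5.27). The smallest adjusted p of the 1088 pairs was 0.0655, for Ndufs7 in heart at 6 h.

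**Figure D2:**
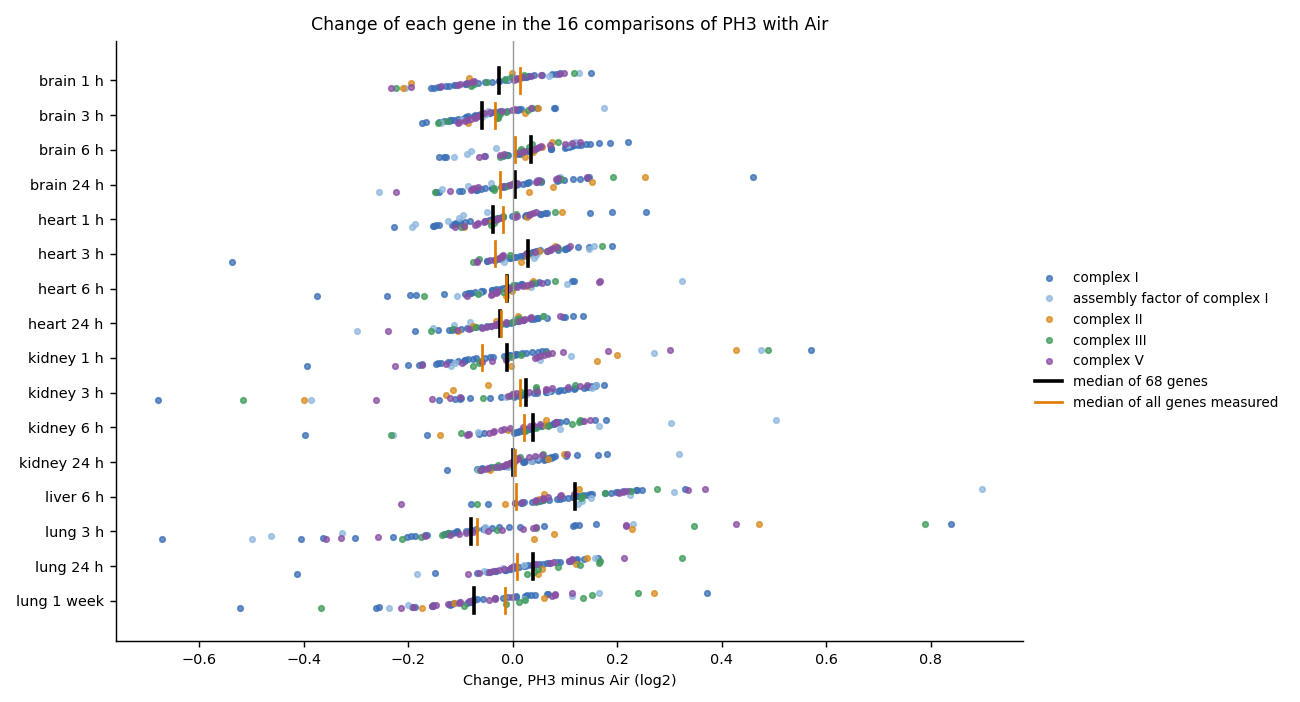
Change in log2 level, PH3 minus Air, of each of the 68 genes (points, coloured by complex) in the 16 comparisons, with the median of the 68 (black bar) and of all genes (orange bar). The liver at 6 h has its median at 0.12, against 0.01 for all genes, and the other comparisons have medians between -0.08 and 0.04.

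With the deposited values, the liver at 6 h was the comparison in which the genes moved most as a group. No single one passed the adjusted test there, where 0.238% of all genes did. Of the 68 genes, 63 had a higher mean in PH3 livers than in Air livers, against 51.5% of all genes, and the median change was 0.12, against 0.01 for all genes. At an unadjusted p under 0.05 there were 23 genes (33.8%), against 14.1% of all genes, and all 23 were higher in PH3, against 7.73% of all genes. In 25 genes every PH3 array was above every Air array, against 5.69% of all genes, and none had the reverse, against 3.91%. These genes are bright on the array, and 56 of the 68 were among the brightest 10% of genes in liver. Those 10% had a median change of -0.02, with 44.5% of them higher in PH3.

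**Figure D3:**
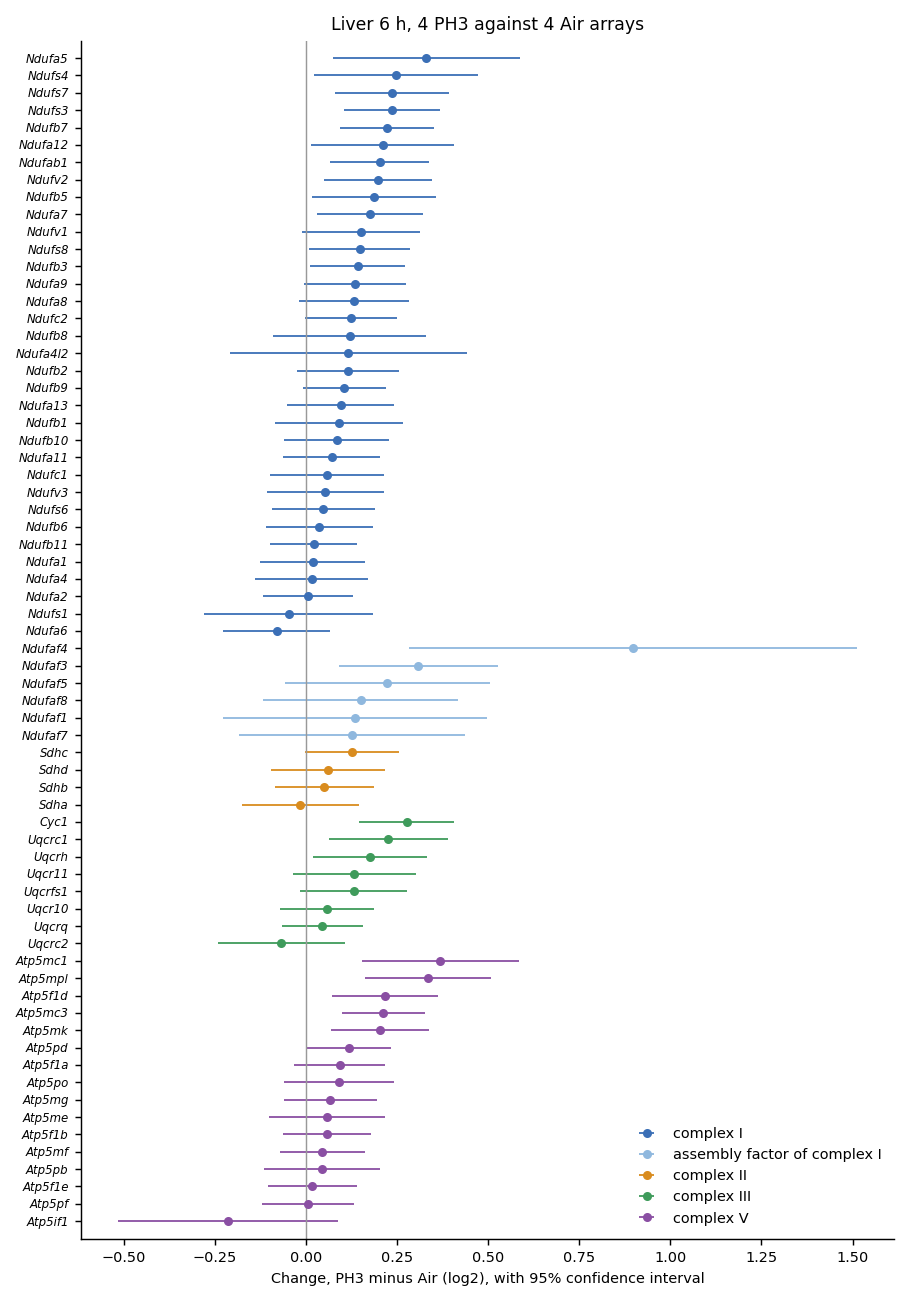
Change in log2 level, PH3 minus Air, of each of the 68 genes in liver at 6 h (points) with its 95% confidence interval (bars), grouped by complex; 4 PH3 and 4 Air arrays. Most points lie right of 0, with Ndufaf4 farthest at 0.90 and Atp5if1 lowest at -0.21.

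By array, the median of the 68 genes was 11.35, 11.39, 11.41 and 11.42 in PH3 livers at 6 h, against 11.33, 11.24, 11.19 and 11.28 in Air livers at 6 h. The 4 PH3 arrays were all above the 4 Air arrays, by 0.02 at the closest. The 3 PH3 livers of 3 h, which have no Air arrays of their own time, had medians of 11.21, 11.26 and 11.28, inside the Air range of 6 h. The Gapdh 3' minus 5' difference ran from 0.86 to 1.31 in PH3 livers at 6 h and from 0.71 to 0.93 in Air livers, and it was higher still, at 1.07 to 1.48, in PH3 livers at 3 h. Summed levels of 5 hepatocyte markers were 15.91 to 15.99 in PH3 livers and 15.89 to 15.96 in Air livers at 6 h. The part of RNA integrity in the result was not tested.

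**Figure D4:**
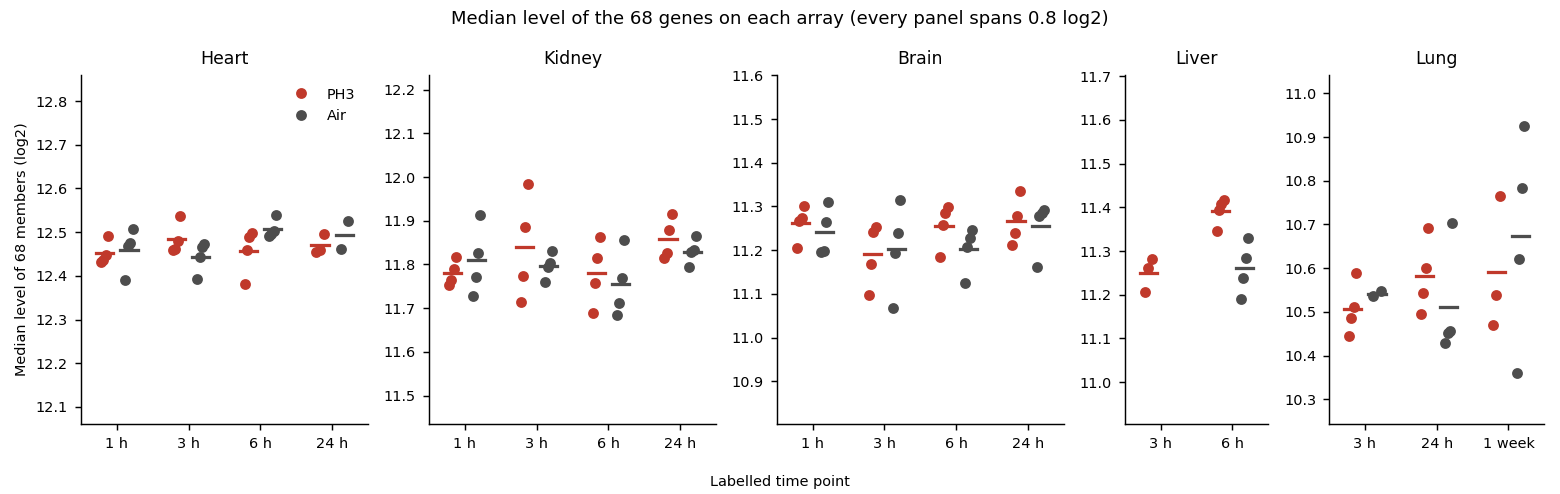
Median log2 level of the 68 genes on each array (points) by organ and labelled time, PH3 in red and Air in grey, with group means as bars; every panel spans 0.8 log2. In liver at 6 h the PH3 arrays lie above the Air arrays, while PH3 and Air overlap in all the other comparisons.

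Within complex I, 32 of 34 genes were higher in PH3 livers at 6 h, with a median change of 0.12. Ndufs3, a core subunit, had 11.03, 11.07, 11.17 and 11.10 in PH3 livers, against 10.91, 10.87, 10.78 and 10.87 in Air livers. The groups did not overlap, and the change was 0.24 ± 0.06 (SE; adjusted p = 0.105 in limma). Ndufb7, an accessory subunit, changed by 0.22 ± 0.06 (limma, adjusted p = 0.116). The 2 complex I genes with a lower mean in PH3 livers were Ndufs1 (-0.05 ± 0.11) and Ndufa6 (-0.08 ± 0.07).

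All 6 assembly factors were higher, with a median of 0.19. Ndufaf4 had 9.11, 9.12, 8.79 and 9.81 in PH3 livers at 6 h, against 8.40, 8.23, 8.65 and 7.96 in Air livers. The groups did not overlap, the spread within each was wide, and the change of 0.90 ± 0.28 (SE) was the largest of the 1088 pairs (limma, adjusted p = 0.165). At 3 h the PH3 livers had 8.54, 8.37 and 9.78. Ndufaf3 changed by 0.31 ± 0.10 (limma, adjusted p = 0.181).

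Complex II was shifted least, with 3 of 4 genes higher and a median change of 0.06. Sdha changed by -0.01 ± 0.07 (SE) and Sdhc by 0.13 ± 0.06. In complex III, 7 of 8 genes were higher. Cyc1 had 11.85, 11.81, 11.72 and 11.84 in PH3 livers at 6 h, against 11.51, 11.53, 11.55 and 11.53 in Air livers. The groups did not overlap, and the change of 0.28 ± 0.06 (SE), 1.21-fold, had the smallest adjusted p of the liver genes in limma, 0.073. The core protein Uqcrc1 changed by 0.23 ± 0.08, and Uqcrc2 was the 1 gene of the complex with a lower mean in PH3 livers, at -0.07 ± 0.08.

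In complex V, 15 of 16 genes were higher in PH3 livers, with a median of 0.08. Atp5mpl, a small subunit of the membrane part, had 11.09, 11.03, 11.09 and 10.98 in PH3 livers at 6 h, against 10.73, 10.76, 10.60 and 10.77 in Air livers. The groups did not overlap, and the change was 0.33 ± 0.08 (SE; limma, adjusted p = 0.0892). Both subunit c genes measured were higher, Atp5mc3 by 0.21 ± 0.05 (limma, adjusted p = 0.0962) and Atp5mc1 by 0.37 ± 0.10 (limma, adjusted p = 0.118). The inhibitor Atp5if1 alone had a lower mean in PH3 livers, with 8.759, 8.772, 8.798 and 9.161 in PH3 livers against 9.494, 8.997, 8.855 and 8.998 in Air livers. Those groups overlapped, and its change was -0.21 ± 0.14 (SE). With the 8 arrays of the comparison fitted alone, Atp5mpl and Cyc1 passed, at adjusted p = 0.0411 and 0.0445, where 1.2% of all genes passed. Over the 14 alternatives their adjusted p ran from 0.0411 to 0.199 and from 0.0445 to 0.199.

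Genes around the pathway in the liver at 6 h were counted on lists of related genes. Of 16 complex IV genes 13 were higher in PH3 livers and none passed the test, and of 18 assembly factors of other complexes 14 were higher and none passed. Among 14 genes of electron carriers 9 were higher, and among 10 regulators 7, and none passed. Median changes of these lists were 0.11, 0.19, 0.10 and 0.09, against 0.12 for the 68 genes. Of 11 citric acid cycle genes 9 were higher, with a median change of 0.18, and Dlst rose. Dlst encodes the succinyltransferase of the 2-oxoglutarate dehydrogenase complex and averaged 11.04 ± 0.07 in PH3 livers and 10.50 ± 0.08 in Air livers (SD, n = 4 each). Its change of 0.54 ± 0.08 (SE; limma, adjusted p = 0.0323) was the only call among these lists in the 16 comparisons.

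In heart, no member passed at 1 h (0.0521% of all genes passed), 3 h (0.238%), 6 h (2.7%) or 24 h (0%), with 5, 4, 4 and 1 of the 68 at an unadjusted p under 0.05, against 8.07%, 12.8%, 15.1% and 3.01% of all genes. At 6 h, where 363 genes over the whole array passed, the members' median change was -0.01. Ndufs7, a subunit near the quinone site, had 12.52, 12.64, 12.60 and 12.35 in PH3 hearts at 6 h, against 12.83, 12.77, 12.71 and 12.76 in Air hearts. The groups did not overlap, and the change was -0.24 ± 0.07 (SE; limma, adjusted p = 0.0655). Without PH3 rat 141, the heart array that stood apart, the change was -0.18 with an adjusted p of 0.346, and without PH3 rat 134 it was -0.28 and passed, at 0.0406. Its adjusted p over the 14 alternatives ran from 0.0406 to 0.346. Ndufa11, an accessory subunit, changed by -0.18 ± 0.06 at 6 h (limma, adjusted p = 0.123, from 0.0327 to 0.347 over the alternatives).

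At 1 h in heart Ndufb6, an accessory subunit, had 11.95, 11.86, 11.93 and 11.96 in PH3 hearts, against 12.10, 12.13, 12.19 and 12.18 in Air hearts, with no overlap and a change of -0.23 ± 0.07 (SE; limma, adjusted p = 0.426). Ndufs6 changed by 0.19 ± 0.07 (limma, adjusted p = 0.451). At 3 h the Rieske protein gene Uqcrfs1 changed by 0.17 ± 0.06 (limma, adjusted p = 0.228) and Ndufa4l2 by -0.54 ± 0.23 (limma, adjusted p = 0.312). Without Air rat 108 these changes were 0.09 and -0.33. Shifting arrays to 1 median moved the all-gene median of this comparison by 0.14, to 0.11, and the members' median to 0.17 from 0.03. The count of members higher in PH3 went to 67 from 47 of 68, with none past the test. At 24 h Ndufa2 changed by -0.19 ± 0.08 and Ndufb3 by 0.14 ± 0.07, each with an adjusted p of 1 in limma.

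In brain, no member passed at 1, 3 or 6 h (0.00744% of all genes at each, 1 gene) or at 24 h (0.0298%). At an unadjusted p under 0.05 there were 3 of 68 at each of the first 3 times, against 5.19%, 4.03% and 3.21% of all genes, and 4 at 24 h, against 12.2%. Ndufab1, the acyl carrier protein, was among the 2 smallest p-values at 3 of the 4 times, with changes of -0.14 ± 0.06 at 3 h, 0.14 ± 0.06 at 6 h and 0.15 ± 0.06 at 24 h (SE). At 24 h it had 11.91, 11.75, 11.91 and 11.83 in PH3 brains, against 11.66, 11.78, 11.62 and 11.75 in Air brains, and the groups overlapped. At 24 h the mean of 4 cerebellum markers was 10.29 to 11.23 in PH3 brains, against 4.30 and 4.42 in Air rats 89 and 145 and 10.16 and 10.61 in the other Air rats. The mean of 4 striatum markers was 6.08 to 8.67 in PH3 brains, lowest in PH3 rat 91, against 8.07 to 9.35 in Air brains. The part of brain region in the 24 h changes was not tested. Without Air rats 89 and 145 no member passed at 24 h, with changes of 0.13 for Ndufab1 and -0.08 for Uqcr11. At 1 h Atp5if1 changed by -0.20 ± 0.09 and Sdhd by -0.19 ± 0.09. At 3 h Ndufv2 changed by -0.13 ± 0.06, at 6 h Ndufb11 by 0.22 ± 0.08, and at 24 h Uqcr11 by -0.15 ± 0.06. Without PH3 rat 105 the Ndufv2 change was -0.07, and without PH3 rat 91 the Uqcr11 change was -0.08. These brain changes had adjusted p-values of 0.333 or more in limma.

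In kidney, no member passed at 1 h (0.223% of all genes), 3 h (0.104%), 6 h (0.127%) or 24 h (0.0149%), with 2, 0, 2 and 1 of 68 at an unadjusted p under 0.05, against 9.97%, 7.29%, 7.78% and 2.37% of all genes. Ndufaf4 changed by 0.48 ± 0.21 at 1 h and 0.50 ± 0.21 at 6 h (SE; limma, adjusted p = 0.479 and 0.504). At 6 h it had 9.003, 8.749, 9.318 and 9.542 in PH3 kidneys, against 8.533, 8.705, 8.745 and 8.613 in Air kidneys. Every PH3 array was above every Air array, the closest pair nearly level. Ndufaf3 changed by 0.30 ± 0.12 at 6 h and Ndufaf1 by 0.32 ± 0.11 at 24 h. At 1 h Sdhb changed by 0.20 ± 0.09, at 3 h Atp5f1a by -0.26 ± 0.13 and Atp5po by -0.10 ± 0.05, and at 24 h Ndufb5 by -0.13 ± 0.08. Single arrays weighed on these. The Sdhb change was 0.10 without Air rat 168, the Atp5f1a and Atp5po changes were -0.12 and -0.06 without PH3 rat 122, and the Ndufb5 change was -0.05 without Air rat 83 and -0.19 without Air rat 89. The Gapdh 3' minus 5' difference was 1.55 for Air rat 168 and 1.54 for PH3 rat 122, against a median of 1.07 on Air kidney arrays. The part of RNA integrity in these changes was not tested. Fitted on all arrays, each of these kidney changes had an adjusted p of 0.435 or more in limma.

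In lung, no member passed at 3 h (0.298% of all genes), 24 h (0%) or 1 week (0%), with 3, 0 and 0 of 68 at an unadjusted p under 0.05, against 11.8%, 1.41% and 2.12% of all genes. Precision was lowest here, and 30 of 68 genes at 3 h had intervals within 0.5 log2. Ndufs1 had 8.96, 8.88, 8.40 and 9.25 in PH3 lungs at 3 h, against 8.08 and 7.98 in Air lungs, with no overlap and a change of 0.84 ± 0.48 (SE; limma, adjusted p = 0.491). Uqcrc2 changed by 0.79 ± 0.40 and Sdha by 0.47 ± 0.25, also without overlap, while Ndufa4l2 changed by -0.67 ± 0.43. In 7 of the 68 genes every PH3 array was above every Air array, and in 20 every PH3 array was below, against 15.3% and 26% of all genes with these 2 Air arrays. A lower mean in PH3 lungs was found for 47 of the 68 and a higher mean for 21, where 39.4% of all genes were higher. The members' median change was -0.08, against -0.07 for all genes. The mean of the brown fat markers Ucp1 and Cidea was 8.71 to 10.11 in PH3 lungs, against 6.41 and 9.05 in Air lungs, and their summed level was 9.71 to 11.16 in PH3 lungs, against 7.58 and 10.09 in Air lungs. The mean of the skeletal muscle markers Ckm and Actn3 was 4.51 to 7.34 in PH3 lungs, against 4.82 and 4.94 in Air lungs, and their summed level was 5.59 to 8.63 in PH3 lungs, against 6.05 and 6.14 in Air lungs. Summed levels of 4 white fat markers were 9.30 to 9.97 in PH3 lungs, against 8.96 and 9.23 in Air lungs. Gapdh 3' minus 5' was 1.07 to 1.77 in PH3 lungs and 1.73 to 1.78 in Air lungs at 3 h, and the part of RNA integrity and of other tissues in these changes was not tested. Ndufaf5, an assembly factor, changed by -0.46 ± 0.20 and Atp5f1b by 0.22 ± 0.10 at 3 h. With the 6 arrays fitted alone, Sdha, Uqcrc2 and Atp5pb passed, each at adjusted p = 0.0467, where 3.87% of all genes did, and with array weights 11 members passed, 5 higher and 6 lower, where 19.1% of all genes did. At 24 h Ndufs3 changed by 0.16 ± 0.11 and Ndufa4l2 by -0.41 ± 0.35, the Ndufa4l2 change being -0.24 without Air rat 84 and -0.21 without PH3 rat 149. At 1 week Uqcrfs1 changed by -0.37 ± 0.19, or -0.20 without Air rat 185, and Uqcrh by 0.13 ± 0.09.

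Whether the PH3 effect differed between times was tested with an F test over the times of an organ. No member passed in brain (0% of all genes passed), heart (0.268%), kidney (0%) or lung (0%). At an unadjusted p under 0.05 there were 3 members in brain, 2 in heart, 0 in kidney and 1 in lung, against 4.25%, 9.99%, 4.96% and 3.22% of all genes. Over the 16 comparisons the largest median absolute change was that of Ndufs1, 0.143, followed by Ndufa4l2 and Uqcrc2, both 0.137. The smallest were those of Uqcrq (0.0278), Ndufa8 (0.0306) and Uqcrh (0.0323), subunits of complexes III, I and III.

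Ndufs1, Uqcrc2 and Sdha varied more between arrays of 1 group than almost all other members in kidney, a pattern chosen after the values were seen. Their standard deviation within kidney groups was 0.708, 0.524 and 0.417, the 3 highest of the 68, against a median of 0.12. In kidney at 3 h, Ndufs1 had 11.00, 9.81, 9.31 and 11.03 in PH3 rats, against 11.36, 10.31, 11.40 and 10.80 in Air rats, and Sdha had 12.06, 11.50, 10.63 and 12.07 in PH3 rats, against 12.10, 11.62, 12.13 and 12.01 in Air rats. The arrays low in one were low in the other. Their PH3 changes in kidney at 3 h, -0.68 ± 0.46 for Ndufs1, -0.52 ± 0.34 for Uqcrc2 and -0.40 ± 0.27 for Sdha (SE), lay inside that spread, and the changes at 1 h had the opposite sign, 0.57 ± 0.46, 0.49 ± 0.34 and 0.43 ± 0.27. The dimmer probe set of Uqcrc2, averaging 7.05 in kidney, changed by 0.005 at 3 h and 0.77 at 1 h.

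**Figure D5:**
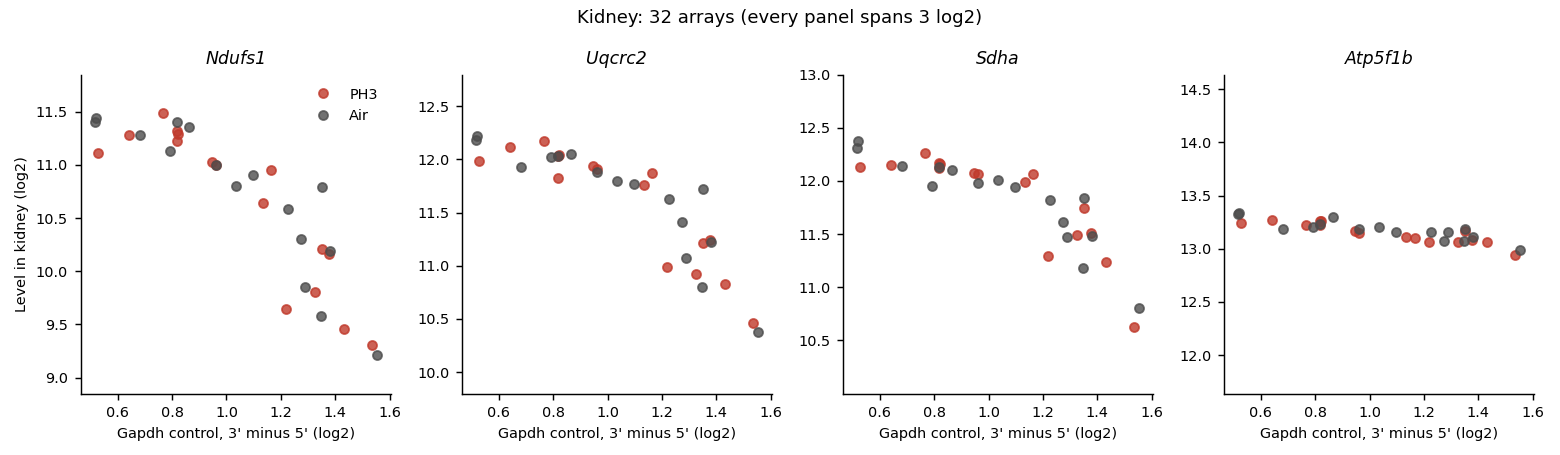
Level in kidney (log2) of 3 genes that varied most between arrays, and of Atp5f1b for comparison, against the 3' minus 5' difference of the Gapdh control on the same array; PH3 in red, Air in grey, 32 arrays, every panel spans 3 log2. Ndufs1 spans 2.27, Uqcrc2 1.83 and Sdha 1.74, falling to the right in both groups, while Atp5f1b spans 0.39.

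Across the 32 kidney arrays the 3 genes tracked each other, with r = 0.986 (rho = 0.980) for Uqcrc2 and 0.963 (rho = 0.962) for Sdha against Ndufs1, each with a permutation p of 1e-05, the smallest that 100000 permutations can give (adjusted p = 3.64e-05 over 40 relations, each by r and by rho). All 3 were lower on arrays with a larger Gapdh 3' minus 5' difference, with r = -0.878 (rho = -0.912) for Ndufs1, -0.871 (rho = -0.913) for Uqcrc2 and -0.855 (rho = -0.911) for Sdha, at the same p by permutation. After leaving out the 2 farthest arrays, these were -0.877, -0.865 and -0.841, and with group means removed they were -0.891, -0.871 and -0.860. In the 11 liver arrays the same relations had r = -0.792 (rho = -0.836) for Ndufs1, -0.732 (rho = -0.664) for Uqcrc2 and -0.638 (rho = -0.627) for Sdha, with permutation p-values for r of 0.00269, 0.0111 and 0.035 (adjusted p = 0.00672, 0.0228 and 0.0609). By rho the adjusted permutation p-values were 0.00575, 0.056 and 0.0715. With group means removed the r values in liver were -0.636, -0.585 and -0.581, and without the 2 farthest arrays they were -0.676, -0.583 and -0.543. In brain they ran from -0.433 to -0.548. In heart they were between -0.178 and 0.005, with Uqcrc2 spread by only 0.0497 within groups, and in lung between -0.344 and -0.081, though Uqcrc2 and Ndufs1 tracked each other there at r = 0.960. Against the 3' minus 5' difference of the beta-actin control, r for Ndufs1, Uqcrc2 and Sdha was -0.73, -0.75 and -0.73 in kidney. In liver it was -0.62, -0.62 and -0.55, with adjusted permutation p-values of 0.0715, 0.0715 and 0.126. In brain it was -0.30, -0.44 and -0.46, with adjusted permutation p-values of 0.146, 0.0239 and 0.0177. None of the beta-actin relations passed in heart or lung. What underlies these relations was not tested. Ndufs1 and Uqcrc2 make up 5 of the 10 pairs with a PH3 change over 0.5.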

How the data were processed

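The deposited values are log2 probe set signals, which the authors made with RMA; Affymetrix Expression Console and Partek are also named in the submitters' processing notes, with no versions or order, and whether RMA took all organs together is not given in the sources used here. RNA was labelled with a 3' in vitro transcription kit, per the labels' protocols. Of 31139 probe sets, 19068 had 1 gene symbol in the platform annotation, 573 had several and 11498 had none. The first kind were used, with the probe set of highest mean per gene and organ (over Air arrays for organ comparisons), giving 13438 genes. The 68 members cover 78 probe sets, and 9 have more than 1. Their gene IDs and symbols all matched the RefSeq table of build GRCr8.

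Each organ was fitted on its own with limma 3.58.1 in R 4.3.3, 1 mean per group, a mean-variance trend and Benjamini-Hochberg adjustment over all genes. PH3 was set against Air at each time, and times were compared with an F test. A fit of the 60 Air arrays compared organs, averaging the time groups of each equally. Each array is 1 rat and 1 organ. PH3 and Air groups share no rats, so they were not paired. Rats are shared between organs, which was tried as a block. P-values measure the spread between these rats. The fits were tested on simulated data. Correlations used 100000 permutations in Python.

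For each PH3 comparison the text names the members past the threshold or, with none, the 2 smallest p-values; for organs, the 2 widest ranges per complex; a fixed panel of core subunits; and the 3 members with the largest and the 3 with the smallest median change. Others named were chosen after their values were seen. The members, lists and motifs were chosen with earlier results of these data known. The alternatives were other weights, filters, probe set rules, scalings and left-out arrays.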

Additional observations from a re-analysis of the deposited data

Results flagged for a closer look

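Among 88 groups of 4 to 10 values tested for a value far from the rest of its group, 5 had one; chance gives about 1 in 20 groups. The median level of the 68 genes was 11.16 on the brain array of Air rat 83 at 24 h, below the 11.28 to 11.29 of the other 3 Air arrays. It was 10.70 on the lung array of Air rat 84 at 24 h, above the 10.43 to 10.46 of the others. Uqcrfs1 read 12.65 in the heart of Air rat 108 at 3 h, below the 12.95 to 13.01 of the others. Atp5po read 12.60 in the kidney of PH3 rat 122 at 3 h, below the 12.74 to 12.75 of the others. Ndufaf5 read 6.74 in the lung of PH3 rat 154 at 3 h, below the 6.93 to 6.97 of the others.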

How the results depend on the processing

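Of 113 recounts of the members called between PH3 and Air under other settings, 108 gave none, as reported. In heart at 6 h, array weights called 2 (Ndufa11 lower and Ndufab1 higher) and without the dimmest 1 in 3 genes 1 was called (Ndufs7); leaving out 1 array gave 0 to 1. In liver at 6 h the arrays alone called 2. In lung at 3 h they called 3 and array weights 11, though the weights stopped before convergence in brain and lung. The F tests between times called none under 5 alternatives. With all probe sets of Atp5if1 averaged, the change in brain at 1 h was 0.0592 in place of -0.20; its other probe sets were dim. The median liver change kept its direction, between 0.10 and 0.13 with 1 array left out and at 0.10 with arrays shifted to one median. Rat as a block for the organ pairing had a consensus correlation of -0.00749 and changed none of the 10 organ counts: 42, 9, 49 and 61 for heart against brain, kidney, liver and lung, 7, 4 and 9 for brain against kidney, liver and lung, 3 and 41 for kidney against liver and lung, and 13 for liver against lung, both directions together. Shifting arrays to one median gave 26 for heart against kidney, 4 for brain against kidney, and 25 each for brain and liver against lung, 24 higher and 1 lower in each. Air arrays of 6 h alone gave 14 for heart against kidney. With no limit on the fold the counts were 67 and 64 for heart against brain and kidney, 64, 50 and 65 for brain against kidney, liver and lung, 59 and 68 for kidney against liver and lung, and 59 for liver against lung. Without an Air liver array, heart against liver gave 46 to 49, brain against liver 4 in each, kidney against liver 3 to 4 and liver against lung 12 to 14. Without the brain arrays of Air rats 89 and 145, the brain counts were 42, 7, 4 and 8. The causes of these moves were not tested. Groups of 2 to 4 rats limit what a PH3 comparison can show.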
